A study of Homo sapiens with 4 samples.

Results

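The genes described are the stress ligands of natural killer receptors, 10 of the 26348 genes listed in RNA sequencing data of 2 human cell lines placed in a magnetic field. They were found by symbol, and each of the 10 was listed. MICA, MICB, ULBP1, ULBP2, ULBP3, RAET1E and RAET1G encode 7 ligands of NKG2D. NCR3LG1 encodes the ligand B7-H6 of NKp30, and PVR and NECTIN2 encode the 2 ligands of DNAM-1. The set was chosen by receptor, and MICB was picked from these libraries for a rise in A549 cells only, so its values under the field are given as a description without a test.

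The groups were A549 cells exposed to the field for 2 h, A549 control cells with no field, 293T cells exposed for 2 h and 293T control cells, with 3 libraries each. A549 is a line of a non-small cell lung cancer, and 293T is described in the labels as a renal epithelial line. The sources used here give neither the strength of the field nor what produced it. No other treatment is named. The labels do not tie the 3 libraries of a group to different cultures, so each p-value reflects library-to-library spread that could be purely technical. Libraries held 37173110 to 38884704 counts each. A first principal component was computed for each line alone, so the 2 lines do not share an axis. On it the exposed replicate 3 of either line lay nearer to the controls than the other exposed libraries. It was at 9.91 in A549 and 6.51 in 293T, and the others were at 14.7 to 18.2.

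Natural killer cells weigh activating against inhibitory signals from the surface of the cell they touch. NKG2D, NKp30 and DNAM-1 are activating receptors. Ligands of NKG2D are scarce on most healthy cells and can be placed on the surface after infection, transformation, heat shock, oxidative stress or DNA damage. MICA and MICB resemble HLA class I heavy chains but bind no peptide, whereas the ULBP proteins lack the third domain of such chains and several of them are held by a lipid anchor. PVR and NECTIN2 are nectin-like adhesion molecules that also bind TIGIT, an inhibitory receptor. The data measured RNA of the target cells alone, and say nothing of surface protein or of killing.

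In the RefSeq annotation of GRCh38.p14, MICA (chr6:31400711-31415315) and MICB (chr6:31494918-31511124) both lie on the plus strand within 110414 bases of the HLA region. ULBP1 (chr6:149963943-149973715, plus strand), ULBP2 (chr6:149942014-149949235, plus), ULBP3 (chr6:150061053-150069121, minus), RAET1E (chr6:149883179-149898113, minus) and RAET1G (chr6:149916878-149923121, minus) form a cluster of 185943 bases on the same chromosome. NCR3LG1 lies at chr11:17351800-17381661 on the plus strand. PVR (chr19:44643910-44666162, plus) and NECTIN2 (chr19:44846297-44889223, plus) lie within 245314 bases of each other.

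MICA and MICB were picked because they had the highest A549 levels of the NKG2D ligands among the members and their promoters are near copies. ULBP2 and ULBP3 were picked because they hold the same AP-1 letters next to the start site. Of these 2, ULBP3 alone passed the test in 293T. The promoter sequences of these 4 members are shown. Each runs 5′ to 3′ on the gene's strand from 250 bases before a RefSeq start site to 30 after it, from the RefSeq promoter table of GRCh38.p14. The windows are chr6:31403345-31403624 for MICA, chr6:31497895-31498174 for MICB, chr6:149941764-149942043 for ULBP2 and chr6:150069092-150069371 for ULBP3. The MICA and MICB windows lie inside the annotated genes, at start sites downstream of the outermost one. Capitals mark matches to a heat shock element pair (GAANNTTC) in MICA and MICB, to an AP-1 site (TGANTCA) in ULBP2 and ULBP3, and to a C/EBP-ATF response element (TGATGNAA, read on the other strand) in ULBP2.
MICA: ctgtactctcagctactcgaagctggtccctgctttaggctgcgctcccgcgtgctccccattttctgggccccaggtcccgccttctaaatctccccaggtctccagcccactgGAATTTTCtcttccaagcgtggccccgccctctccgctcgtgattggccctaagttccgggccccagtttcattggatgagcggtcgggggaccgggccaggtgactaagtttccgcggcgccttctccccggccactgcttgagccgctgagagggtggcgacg
MICB: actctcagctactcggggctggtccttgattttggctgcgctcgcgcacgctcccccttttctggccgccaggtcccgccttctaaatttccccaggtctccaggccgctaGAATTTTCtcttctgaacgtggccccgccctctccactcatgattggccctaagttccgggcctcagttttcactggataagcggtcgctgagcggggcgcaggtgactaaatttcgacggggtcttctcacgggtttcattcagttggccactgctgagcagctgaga
ULBP2: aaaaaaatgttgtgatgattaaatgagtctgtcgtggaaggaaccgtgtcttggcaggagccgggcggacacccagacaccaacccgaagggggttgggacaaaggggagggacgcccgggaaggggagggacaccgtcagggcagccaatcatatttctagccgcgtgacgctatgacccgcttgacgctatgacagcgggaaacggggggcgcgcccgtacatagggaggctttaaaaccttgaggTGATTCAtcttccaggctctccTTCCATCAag
ULBP3: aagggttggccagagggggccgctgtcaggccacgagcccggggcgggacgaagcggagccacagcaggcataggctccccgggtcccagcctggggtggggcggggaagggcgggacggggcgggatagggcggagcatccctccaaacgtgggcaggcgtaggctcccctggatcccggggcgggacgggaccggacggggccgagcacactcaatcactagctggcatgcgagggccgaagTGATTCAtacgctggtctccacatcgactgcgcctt

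Of 284 aligned bases, 246 were identical between the MICA and MICB windows, which is 86.6%. In both the heat shock letters read GAATTTTC, starting 135 bases before the start site in MICA and 139 before it in MICB. Both strands were searched, in windows running to 50 bases after the start site. These letters were found in 6.77% of the 35116 promoters in the table. The opposite arrangement, TTCNNGAA, was found in 7.74% of them and among the ligand genes in RAET1E alone. AP-1 letters began 2 bases before the start site of ULBP2 and 6 before that of ULBP3, and were present in 7.71% of promoters. NECTIN2 held the cAMP response element TGACGTCA, found in 1.85% of promoters, at its start site. At least 1 GC box (GGGCGG) was present in 45.0% of promoters. ULBP3 had 6 of them, NECTIN2 had 3, ULBP1 and NCR3LG1 had 2 each, and MICA, MICB, ULBP2 and RAET1G had 1 each. CCAAT boxes (CCAAT), held by 34.6% of promoters, were found in MICA, MICB, ULBP2, RAET1E and RAET1G. The C/EBP-ATF letters of ULBP2 occur in 3.62% of promoters. RAET1E, which has 3 promoters in the table, also held AP-1 letters in another of them and an E-box (CACGTG), found in 7.26% of promoters. The PVR window held none of the 8 motifs searched. A match is a string of letters and was not tested as a binding site.

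**Figure D1:**
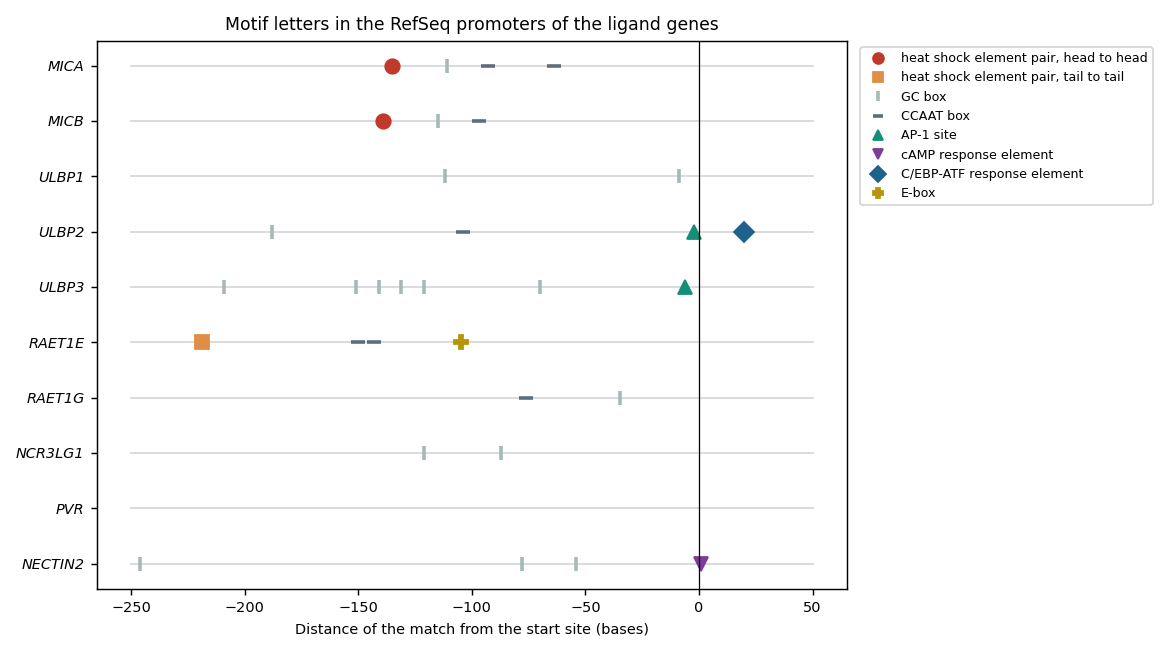
Matches to 8 motifs in the promoter windows of the 10 ligand genes, by distance in bases from the start site, with 250 bases before it and 50 after it. MICA and MICB carry the head-to-head heat shock letters at 135 and 139 bases before the start, and PVR carries no match. RAET1E has 3 promoters in the table, and the first is drawn.

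The levels are given as FPKM, fragment counts scaled by gene length and library total. The lengths implied by the values can differ from the exonic bases in GENCODE v29. They were 9671 bases against 3004 for RAET1E and 1443 against 2386 for MICA. Orders, sums and ratios of different genes, and the filter, depend on these lengths. Ratios of the FPKM of 1 gene between groups do not. Differences of log2(FPKM + 1) and their tests do, through the 1 that is added. MICB, whose product is the polymorphic MHC class I related ligand B, stood at 27.9, 32.9 and 21.5 FPKM in exposed A549 libraries, against 6.57, 6.21 and 6.70 FPKM in the A549 controls. Every exposed library was above every control, with exposed replicate 3 the lowest of the exposed libraries. The ratio of the means was 4.22, and the difference of log2(FPKM + 1) was 1.90. Under 23 other settings this difference lay between 1.77 and 2.06. Many of these settings, such as leaving out a 293T library or the filter, cannot change it. As MICB was picked for this rise, the range is only a description. In 293T MICB stood at 5.09, 4.80 and 4.52 FPKM after exposure, against 4.37, 4.55 and 3.95 FPKM in the controls. These ranges overlapped, with a ratio of 1.12. The A549 difference rested on 2066 to 3097 counts per exposed library and 601 to 649 per control. Among the exposed A549 libraries the coefficient of variation of MICB was 20.9%, where counting error alone would give 1.96%. In these bulk samples, more cells with a transcript and more transcript per cell cannot be told apart, nor can fewer cells and less per cell where a level fell.

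**Figure D2:**
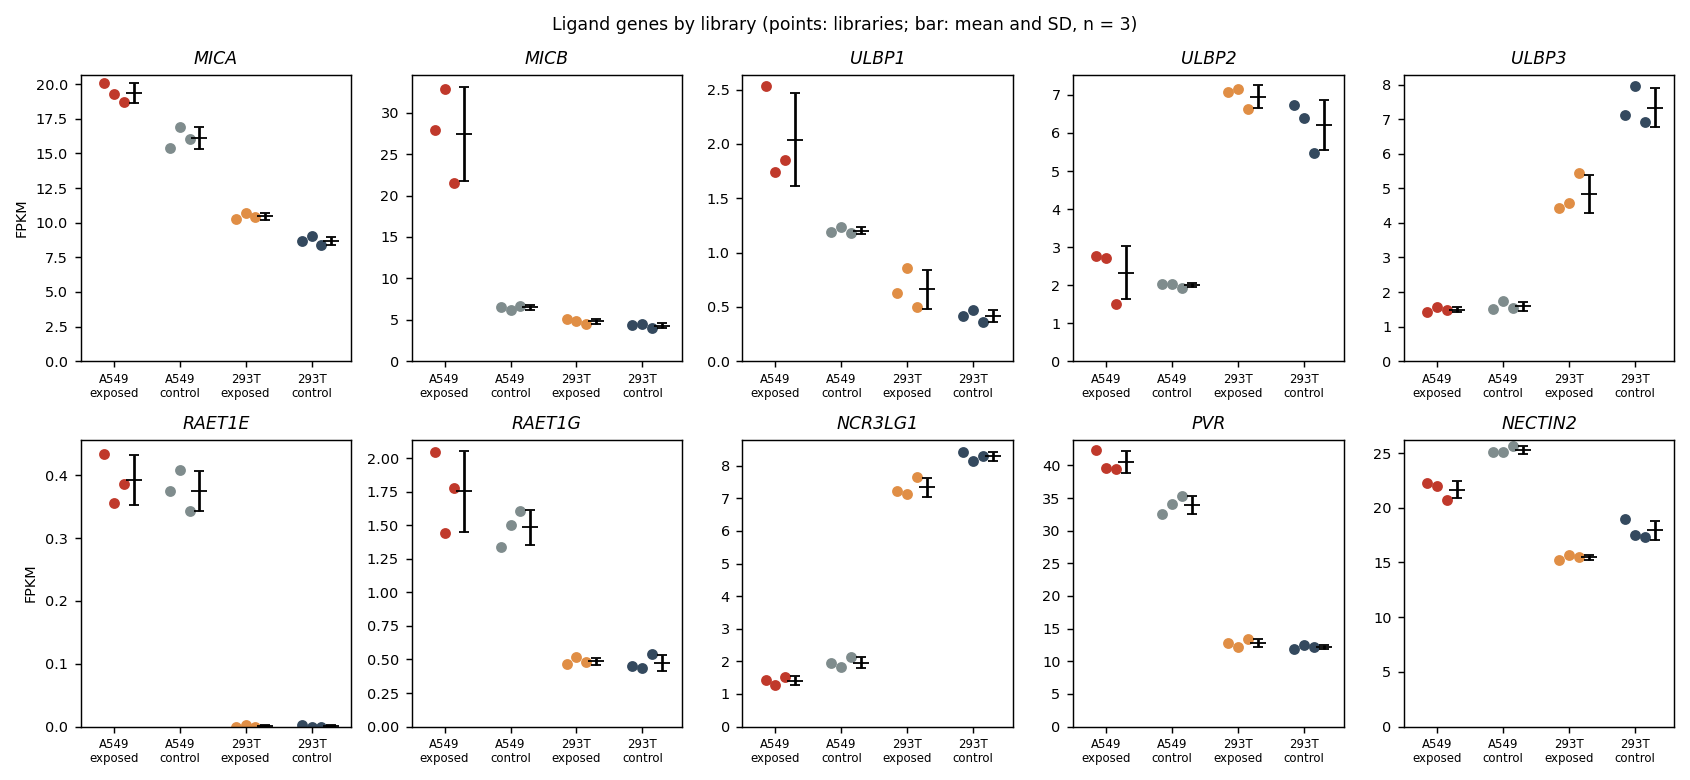
FPKM of each ligand gene in the 12 libraries, on an axis from 0 for each gene. Points are libraries in the order of replicates 1 to 3 and bars give the mean and SD of 3 libraries. MICB stands at 21.5 to 32.9 FPKM in exposed A549 cells and below 7 FPKM in the other 9 libraries, whereas the other ligands moved by less.

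MICA, the paralog of MICB, rose with the field in either line. Its A549 level was 20.1, 19.3 and 18.7 FPKM in exposed libraries, against 15.4, 16.9 and 16.1 FPKM in controls. In 293T it was at 10.3, 10.7 and 10.4 FPKM in exposed libraries, against 8.66, 9.02 and 8.41 FPKM in controls. In neither line did the groups overlap. The ratio of the means was 1.20 in either line. The log2 difference was 0.25 in A549 (SE 0.04, limma adjusted p = 7.11e-04) and 0.24 in 293T (SE 0.04, limma adjusted p = 0.00118). Between the lines these effects differed by 0.01, with a 95% interval of -0.12 to 0.14 (limma adjusted p = 0.945). MICA and MICB shared no stretch of 125 bases, the shorter of the read lengths named in the labels, so reads of that length without mismatches tell them apart. Of MICA's exonic bases 62, or 2.6%, also belong to the noncoding HCP5, which was at 0.0551 FPKM in exposed and 0.0541 FPKM in control A549 cells.

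ULBP1, a lipid-anchored NKG2D ligand, was at 2.53, 1.74 and 1.85 FPKM in exposed A549 libraries, against 1.19, 1.24 and 1.18 FPKM in A549 controls. All exposed libraries lay above the controls, and the highest was replicate 1. The ratio of the means was 1.70, and the log2 difference of 0.46 passed the test (SE 0.09, limma adjusted p = 0.00207). In 293T it was at 0.628, 0.857 and 0.498 FPKM in exposed libraries, against 0.415, 0.467 and 0.358 FPKM in controls. These groups did not overlap either, at a ratio of 1.60, but the log2 difference of 0.23 (95% interval 0.03 to 0.43) missed the threshold, at a limma adjusted p of 0.0719. It passed under 5 of 23 other settings, including a pseudocount of 0.1, with a lowest adjusted p of 0.0242. The transcript had 44 to 313 counts per library, and it entered the fit through A549, since no 293T control reached 0.5 FPKM. At such levels log2(FPKM + 1) understates the change, and limma-voom on the recovered counts gave log2 differences of 0.74 in A549 and 0.64 in 293T.

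ULBP2, whose product is also lipid-anchored, was at 2.76, 2.72 and 1.52 FPKM in exposed A549 libraries, against 2.04, 2.04 and 1.93 FPKM in A549 controls. Exposed replicates 1 and 2 lay above the controls and replicate 3 below them. The log2 difference was 0.13 (95% interval -0.14 to 0.40, limma adjusted p = 0.470), and without exposed replicate 3 it was 0.32 (adjusted p = 0.00426), but without exposed replicate 1 it was 0.03 (adjusted p = 0.925). In 293T it was at 7.08, 7.16 and 6.62 FPKM in exposed libraries, against 6.73, 6.40 and 5.46 FPKM in controls, with overlap and a log2 difference of 0.15 (95% interval -0.12 to 0.42, limma adjusted p = 0.387). Of the 125-base stretches in its transcripts 7.1% also occur in RAET1L, a close relative, and the effect of such reads on its counts was not examined.

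ULBP3 fell in 293T. It was at 4.44, 4.59 and 5.45 FPKM in exposed 293T libraries, against 7.11, 7.96 and 6.92 FPKM in 293T controls. Every exposed library was below every control, and replicate 3 was the highest of the exposed. The level was 1.52-fold lower, with a log2 difference of -0.52 (SE 0.07, limma adjusted p = 2.22e-04). In A549 it was at 1.44, 1.56 and 1.49 FPKM in exposed libraries, against 1.50, 1.74 and 1.55 FPKM in controls. There the groups overlapped, with a log2 difference of -0.06 (95% interval -0.21 to 0.09, limma adjusted p = 0.577). The effects differed between the lines by 0.46, A549 minus 293T (SE 0.10, limma adjusted p = 0.0105). That difference was 0.51 on the recovered counts with limma-voom, where its adjusted p of 0.074 missed the threshold. ULBP3 was the only one of the 8 members tested other than MICB to pass this test, to be set against 12.5% of all 13811 genes tested. Of the 125-base stretches in its transcripts 4.17% also occur in RAET1K.

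RAET1G, the ligand also called ULBP5, was at 2.04, 1.44 and 1.78 FPKM in exposed A549 libraries, against 1.34, 1.51 and 1.61 FPKM in A549 controls. The groups overlapped through exposed replicate 2, and the log2 difference was 0.14 (95% interval -0.01 to 0.30, limma adjusted p = 0.136). Without that library it was 0.23 (adjusted p = 0.0159), and without exposed replicate 1 it was 0.07 (adjusted p = 0.490). In 293T, RAET1G ranged from 0.464 to 0.517 FPKM in exposed libraries and from 0.435 to 0.543 FPKM in controls, with a log2 difference of 0.01 (95% interval -0.15 to 0.17, limma adjusted p = 0.941). It entered the fit through A549, and 9.29% of its exonic bases also belong to the antisense gene RAET1E-AS1.

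RAET1E, the ligand also called ULBP4, stayed below the filter of 0.5 FPKM in 3 libraries. It was at 0.435, 0.356 and 0.386 FPKM in exposed A549 libraries, against 0.375, 0.408 and 0.344 FPKM in A549 controls, and these groups overlapped. In 293T it had 1 count in the 3 exposed libraries together, against 1 count in the 3 controls together. Fitted without the filter, its A549 difference was 0.02 on the log2 scale (adjusted p = 0.764). Its transcripts share 29.8% of their 125-base stretches with the overlapping gene AL355312.5, so the assignment of its reads is uncertain.

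NCR3LG1 was lower in exposed cells. In A549 it was at 1.43, 1.28 and 1.53 FPKM in exposed libraries, against 1.93, 1.82 and 2.14 FPKM in controls. The groups did not overlap, and the level was 1.39-fold lower (log2 difference -0.30, SE 0.05, limma adjusted p = 9.06e-04). In 293T it was at 7.23, 7.12 and 7.67 FPKM in exposed libraries, against 8.43, 8.13 and 8.30 FPKM in controls. Again there was no overlap, with a 1.13-fold lower level and a log2 difference of -0.16 (SE 0.05, limma adjusted p = 0.0365). The 293T call was lost under 10 of 23 other settings, with adjusted p between 0.00979 and 0.119. The effects differed by -0.14 between the lines (95% interval -0.31 to 0.02, limma adjusted p = 0.251).

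PVR and NECTIN2, which share the receptor DNAM-1, moved in opposite directions in A549. PVR, the poliovirus receptor CD155, was at 42.4, 39.7 and 39.4 FPKM in exposed A549 libraries, against 32.5, 34.1 and 35.3 FPKM in A549 controls. Every exposed library was above the controls (1.19-fold, log2 difference 0.25, SE 0.05, limma adjusted p = 0.00105). NECTIN2, also called CD112, was at 22.2, 22.0 and 20.8 FPKM in exposed A549 libraries, against 25.1, 25.1 and 25.7 FPKM in A549 controls. All exposed libraries were below the controls (1.17-fold lower, log2 difference -0.21, SE 0.04, limma adjusted p = 0.00103). The ratio of PVR to NECTIN2 within a library was 1.87 ± 0.0564 in exposed and 1.34 ± 0.0429 in control A549 cells (SD, n = 3 each).

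In 293T PVR was at 12.8, 12.2 and 13.5 FPKM in exposed libraries, against 11.8, 12.5 and 12.2 FPKM in controls. These overlapped, with a log2 difference of 0.07 (95% interval -0.03 to 0.17, limma adjusted p = 0.269). NECTIN2 was at 15.2, 15.7 and 15.5 FPKM in exposed 293T libraries, against 19.0, 17.6 and 17.4 FPKM in 293T controls. It fell without overlap by 0.20 on the log2 scale (1.16-fold lower, SE 0.04, limma adjusted p = 0.00189). For PVR the effects differed by 0.18 between the lines (95% interval 0.04 to 0.32), which missed the threshold at a limma adjusted p of 0.0882 and passed it without exposed 293T replicate 3 (adjusted p = 0.0428). Of the exonic bases of PVR 3.44% also belong to CEACAM19, and of those of NECTIN2 3.42% to the antisense gene AC011481.2, and whether counting used strand is unknown. For NECTIN2 the effects differed by -0.01 (95% interval -0.13 to 0.11, limma adjusted p = 0.914).

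**Figure D3:**
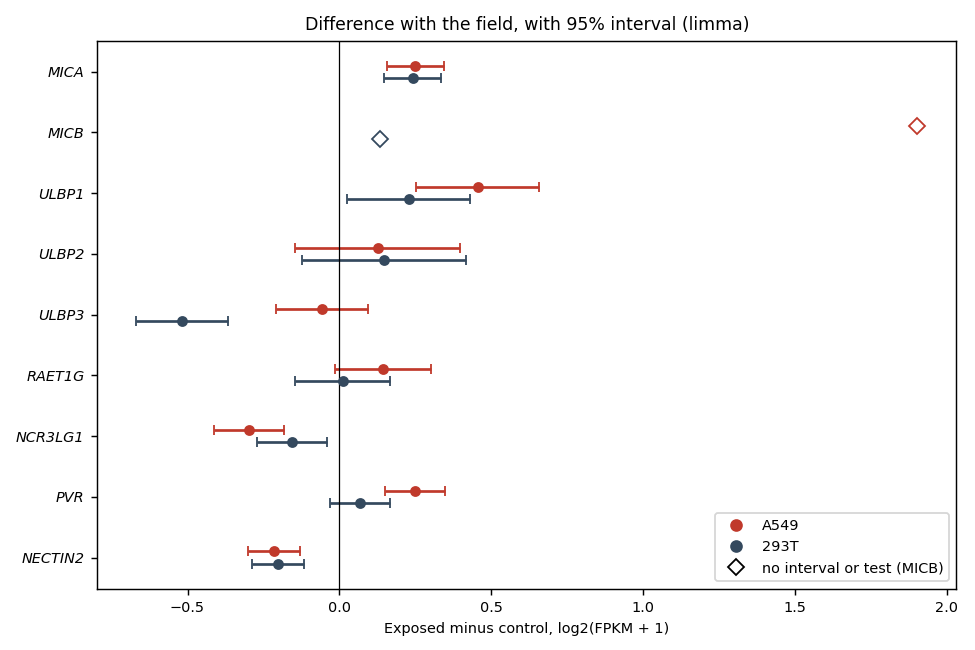
Difference of log2(FPKM + 1), exposed minus control, for the 9 ligand genes that passed the filter, in A549 (upper point of each pair) and 293T (lower point). Bars are 95% intervals from limma, and MICB is drawn as open diamonds without an interval or test. MICB in A549 lies at 1.90, and the other points lie between -0.52 and 0.46.

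Of the 8 members other than MICB that were tested, 3 were higher (MICA, ULBP1, PVR) and 2 lower (NCR3LG1, NECTIN2) in exposed A549 cells. Of all genes tested, 40.2% passed in A549, 13.3% higher and 26.9% lower. In 293T 1 member was higher (MICA) and 3 were lower (ULBP3, NCR3LG1, NECTIN2), where 38.0% of all genes passed, 13.7% higher and 24.2% lower. The median log2 difference of the 8 was 0.13 in A549 and 0.04 in 293T, beside -0.04 and -0.03 over all genes. With so many genes past the threshold, these counts are not read as a property of the ligand genes. The balance of all calls depended on the scaling: in A549 1837 genes were higher and 3711 lower, but 2400 and 2786 after quantile normalization and 2695 and 2525 after centring on the median. In 293T 1897 were higher and 3346 lower, and 2403 and 2620 after quantile normalization. No call of a member changed direction under these scalings.

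Summed over the 7 members that bind NKG2D, the level was 54.8 ± 6.73 FPKM in exposed A549 libraries and 29.3 ± 0.854 FPKM in A549 controls (SD, n = 3 each). RAET1L, a relative that is not a member, is not in the sum. The sum was 28.2 ± 0.396 FPKM in exposed and 27.4 ± 1.62 FPKM in control 293T libraries (SD, n = 3 each). MICB made up 49.7 ± 4.74% of the sum in exposed A549 libraries and 22.2 ± 1.35% in A549 controls, so the A549 sum carries the same selection as MICB and was not tested. Its share was 17.0 ± 1.06% in exposed and 15.7 ± 0.208% in control 293T libraries. The 5 members of the ULBP family made up 45.9% of the sum in exposed and 52.6% in control 293T cells, but 14.7% in exposed and 22.8% in control A549 cells. In exposed A549 libraries MICB exceeded MICA, at a ratio of 1.41 ± 0.280, whereas in A549 controls it was at 0.404 ± 0.0323 of MICA (SD, n = 3 each).

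**Figure D4:**
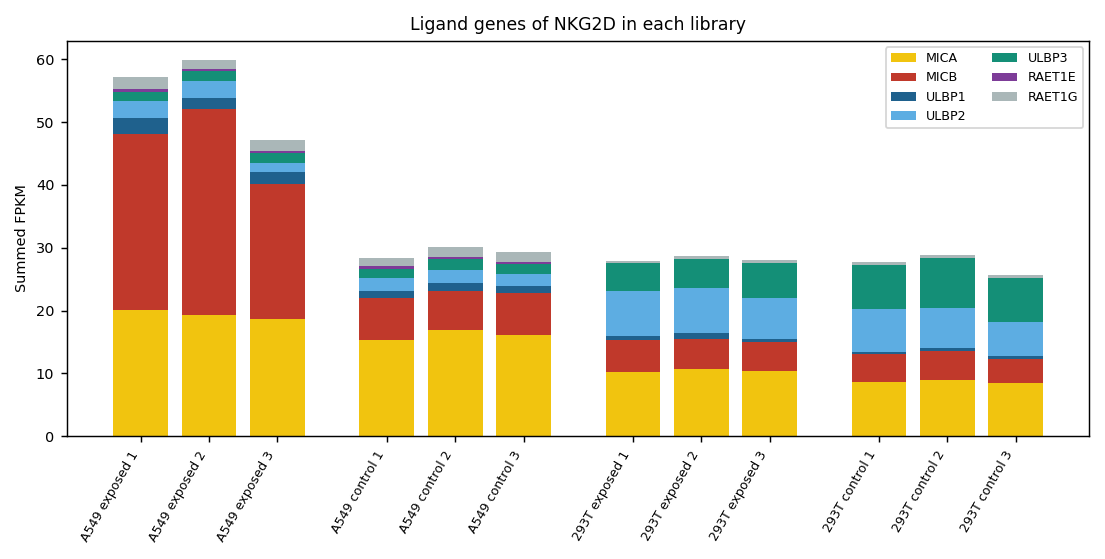
Summed FPKM of the 7 members that encode NKG2D ligands in each library, with the contribution of each gene stacked. Exposed A549 libraries reach 47.2 to 59.9 FPKM, of which MICB is 45.5% to 54.8%, and the other 9 libraries lie between 25.6 and 30.1 FPKM.

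Ordered by level, PVR led in exposed A549 cells, followed by MICB and NECTIN2, whose libraries overlapped, and by MICA. ULBP2, ULBP1, RAET1G, ULBP3 and NCR3LG1 came next, at means of 2.33 to 1.41 FPKM with each neighbour overlapping, and RAET1E was last. In A549 controls the order was PVR, NECTIN2, MICA and MICB, with no overlap among these 4. Below them came ULBP2 and NCR3LG1, which overlapped, ULBP3 and RAET1G, which also overlapped, then ULBP1 and RAET1E. In exposed 293T cells NECTIN2 led, followed by PVR and MICA, then NCR3LG1 and ULBP2, which overlapped, ULBP3 and MICB, which overlapped, and ULBP1 and RAET1G, which overlapped. In 293T controls NECTIN2, PVR and MICA again led, MICA and NCR3LG1 overlapped, and ULBP3, ULBP2 and MICB followed without overlap before RAET1G and ULBP1, which overlapped.

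Levels of the ligand genes were also compared between the untreated lines. In A549 controls MICA, PVR and NECTIN2 were higher, and ULBP2, ULBP3 and NCR3LG1 lower, than in 293T controls. Of all genes tested 88.3% differed, so these calls are not read as a property of the ligand genes. PVR was 2.79-fold higher in A549 (log2 difference 1.41, limma adjusted p = 4.79e-12) and MICA 1.85-fold higher (0.82, limma adjusted p = 7.75e-10). NECTIN2 was 1.41-fold higher. ULBP1 was 2.91-fold and RAET1G 3.12-fold higher, but both entered the fit only through A549, with 0 and 1 of the 293T controls above 0.5 FPKM. Their calls are therefore left out of those above. The control level of MICB was 1.51-fold higher in A549, which is given without a test because these control values took part in its selection. ULBP3 was 4.60-fold lower in A549 (log2 difference -1.68, limma adjusted p = 6.04e-11), NCR3LG1 4.22-fold lower (-1.65, limma adjusted p = 4.82e-12) and ULBP2 3.10-fold lower (-1.26, limma adjusted p = 5.42e-07). These comparisons share the control libraries with those of the field. RAET1E, outside the main test, had 423 counts in the 3 A549 controls together, against 1 count in the 3 293T controls together.

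Of the 5 listed genes on either side of MICB on chromosome 6, MICA passed the test in A549, and all but MICA and NFKBIL1 averaged at most 0.223 FPKM there and are not compared. NFKBIL1, which lies 35727 bases beyond MICB, was at 5.07 FPKM in exposed and 5.17 FPKM in control A549 cells (log2 difference -0.03, limma adjusted p = 0.831). HCP5, 29109 bases on the other side, entered the fit through 293T and was at 0.0551 FPKM in exposed and 0.0541 FPKM in control A549 cells. The divergent transcript MICB-DT, which ends 124 bases from MICB, was at 0.0483 FPKM in exposed and 0.0173 FPKM in control A549 cells and was not tested.

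The genes whose profile over the 12 libraries was most like that of MICB were taken by the smallest root mean square difference of standardised log2(FPKM + 1) values, as a description. HSPA1L, a heat shock protein 70 family gene 298495 bases from MICB, was nearest, at 0.0915 SD. It averaged 5.07 ± 1.67 FPKM in exposed and 0.771 ± 0.0445 FPKM in control A549 cells, and 0.241 ± 0.0741 FPKM in exposed and 0.192 ± 0.0240 FPKM in control 293T cells (SD, n = 3 each). HSPA1L has close relatives among its neighbours, and reads shared with them were not examined. NOTCH1, a receptor of cell contact signalling, followed at 0.191 SD, PLOD1, a collagen lysyl hydroxylase, at 0.193 and HSPB8, a small heat shock protein, at 0.196. HSPB8 averaged 33.0 ± 7.71 FPKM in exposed and 6.73 ± 0.468 FPKM in control A549 cells, and 5.90 ± 1.89 FPKM in exposed and 3.45 ± 0.0862 FPKM in control 293T cells (SD, n = 3 each).

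Other ligands of natural killer receptors that are not members numbered 25, of which 18 were tested. In exposed A549 cells 1 was higher and 4 were lower, with a median log2 difference of -0.03, and in exposed 293T cells 0 were higher and 4 lower, with a median of -0.01. Over all genes 40.2% passed in A549 and 38.0% in 293T, with medians of -0.04 and -0.03. NECTIN1, an adhesion molecule related to NECTIN2, was at 2.57 ± 0.157 FPKM in exposed and 3.37 ± 0.0424 FPKM in control A549 cells (SD, n = 3 each), and it fell by 0.29 (limma adjusted p = 2.31e-04). Its 293T difference of -0.10 did not pass (limma adjusted p = 0.0911). BAG6, which like B7-H6 binds NKp30, fell in both lines, by 0.14 in A549 (limma adjusted p = 0.00172) and by 0.18 in 293T (limma adjusted p = 4.64e-04). CD276, or B7-H3, a checkpoint molecule, also fell in both, by 0.18 in A549 (limma adjusted p = 0.00107) and by 0.20 in 293T (limma adjusted p = 9.31e-04).

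HLA class I molecules give natural killer cells their main inhibitory signal. Of 21 tested genes of class I and peptide loading, 3 rose and 5 fell in exposed A549 cells, and 4 rose and 4 fell in exposed 293T cells, where 40.2% of all genes passed in A549 and 38.0% in 293T. The balance turned with the scaling: in A549 it was 5 higher and 3 lower after quantile normalization, 4 and 3 after median centring, and 3 and 8 with sums that leave out mitochondrial genes. In 293T it was 5 and 3 after either of the first 2 scalings. The chaperones CALR and CANX rose in both lines: CALR by 0.44 in A549 and 0.37 in 293T (limma adjusted p = 5.29e-05 and 2.72e-04), and CANX by 0.30 and 0.39 (limma adjusted p = 2.27e-04 and 7.66e-05). IRF1, an interferon-induced activator of class I genes, was at 10.5 ± 0.345 FPKM in exposed and 14.6 ± 0.366 FPKM in control A549 cells (SD, n = 3 each). It fell by 0.44 in A549 (limma adjusted p = 4.14e-05), and its 293T difference of -0.10 did not pass (limma adjusted p = 0.119). The effects on IRF1 differed by -0.33 (limma adjusted p = 0.00930), a call that was lost with a pseudocount of 0.1 and with limma-voom.

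Ligands can be cut from the surface or taken back into the cell. Of 18 tested genes of shedding and surface turnover, 1 was higher and 6 lower in exposed A549 cells, and 1 was higher and 3 lower in exposed 293T cells, beside 40.2% and 38.0% of all genes past the threshold. After median centring the A549 counts were 2 and 4, and after quantile normalization the 293T counts were 3 and 2. PDIA6, a disulfide isomerase that takes part in the shedding of MICA, rose by 0.39 in A549 and 0.37 in 293T (limma adjusted p = 4.00e-04 and 7.25e-04). RHBDF2, which carries the protease ADAM17 to the surface, fell by 0.30 and 0.34 (limma adjusted p = 0.00258 and 0.00144). MARCHF9, a membrane ubiquitin ligase, was at 2.75 ± 0.379 FPKM in exposed and 4.61 ± 0.144 FPKM in control A549 cells (SD, n = 3 each), and it fell by 0.59 (limma adjusted p = 5.94e-05). In 293T its difference of -0.17 did not pass (limma adjusted p = 0.0714), and the effects differed by -0.41 (limma adjusted p = 0.0180).

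Regulators of DNA damage and cell cycle that have been linked to NKG2D ligands were all tested, 14 in number. In exposed A549 cells 1 was higher and 4 were lower, in exposed 293T cells 5 were higher and 3 lower, and the effects differed between the lines for 4. The shares of all genes that passed in these comparisons were 40.2%, 38.0% and 12.5%. After median centring 2 were higher and 3 lower in A549. E2F2, a cell cycle transcription factor, fell by 0.67 in A549 (limma adjusted p = 2.74e-05), while its 293T difference was 0.14 (limma adjusted p = 0.137). CDKN1A, the p21 inhibitor of cyclin-dependent kinases, was at 24.1 ± 1.98 FPKM in exposed and 14.0 ± 0.211 FPKM in control 293T cells (SD, n = 3 each). It rose by 0.74 there (limma adjusted p = 5.19e-06), with a difference of 0.09 in A549 (limma adjusted p = 0.171). E2F3, a relative of E2F2, rose by 0.54 in 293T (limma adjusted p = 2.81e-05), with 0.04 in A549 (limma adjusted p = 0.519). The effects differed between the lines by -0.80 for E2F2, -0.65 for CDKN1A and -0.50 for E2F3 (limma adjusted p = 6.00e-04, 3.21e-04 and 0.00105).

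Transcription and RNA regulators linked to these ligands numbered 21, all tested. In exposed A549 cells 7 were higher and 6 lower, and in exposed 293T cells 8 were higher and 8 lower, where 40.2% and 38.0% of all genes passed. After median centring these counts were 8 and 4 in A549 and 8 and 6 in 293T, and without mitochondrial genes in the sum 6 and 7 in A549 and 6 and 8 in 293T. MYC moved in opposite directions. It was at 45.8 ± 2.50 FPKM in exposed and 26.3 ± 0.409 FPKM in control A549 cells, and at 15.7 ± 0.464 FPKM in exposed and 23.6 ± 0.999 FPKM in control 293T cells (SD, n = 3 each). The log2 differences were 0.78 and -0.56, and the effects differed by 1.34 (limma adjusted p = 5.73e-07). DDIT3, the stress factor CHOP, rose in both lines, by 0.99 in A549 and by 1.20 in 293T (limma adjusted p = 3.74e-05 and 2.99e-05). NFE2L2, the oxidative stress factor NRF2, rose by 0.41 in A549 and by 0.72 in 293T (limma adjusted p = 2.15e-04 and 1.94e-05).

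**Figure D5:**
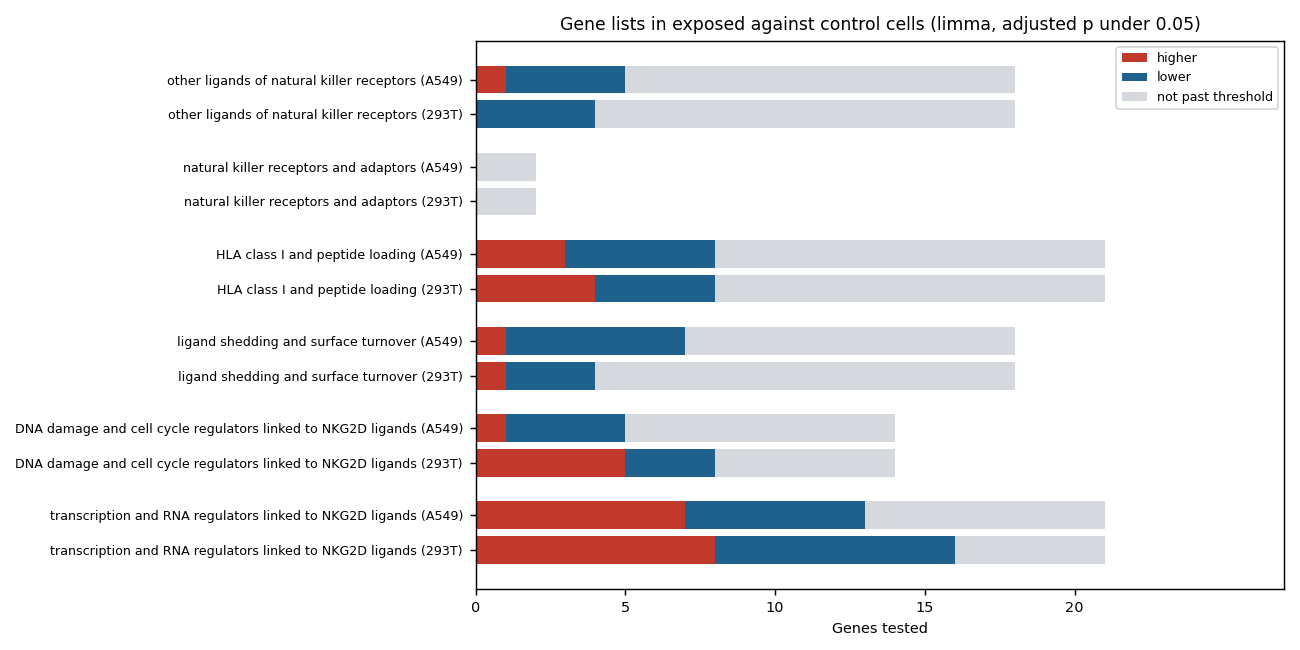
Genes of 6 lists tested in exposed against control cells of each line, with the numbers higher, lower and not past the threshold. Bars for A549 lie above those for 293T. The list of receptors and adaptors has 2 genes tested and 0 past the threshold, and the list of transcription and RNA regulators has the most past it, with 13 in A549 and 16 in 293T.

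The 10 A549 markers summed to 6095 to 6212 FPKM in exposed and 5980 to 6058 FPKM in control A549 libraries, and to 16.3 to 23.1 FPKM over all 293T libraries. The 10 markers of 293T summed to 669 to 701 FPKM in exposed and 688 to 706 FPKM in control 293T libraries, and to 36.2 to 40.7 FPKM over all A549 libraries, while most of the 293T sum was CKB, at 480 FPKM in exposed and 492 FPKM in control 293T cells. PAX2 was at no more than 0.646 FPKM in any library. DLK2 was no higher in 293T, at 0.285 FPKM in exposed and 0.412 FPKM in control cells, than in A549, at 0.291 FPKM in exposed and 0.456 FPKM in control cells. Of the alveolar type II markers SFTPC was at most 0.0275 FPKM. NKX2-1, from the same list, was higher in 293T than in A549. Its exposed and control means were 0.833 and 0.947 FPKM for 293T, against 0.00735 and 0.0108 FPKM for A549. The 8 listed markers of natural killer and other white blood cells summed to 2.27 to 2.79 FPKM in exposed and 2.87 to 3.12 FPKM in control A549 libraries, and to 0.623 to 0.877 FPKM in exposed and 0.779 to 0.924 FPKM in control 293T libraries. CD14, a monocyte marker, made up most of the A549 sum. Of these markers PTPRC was at most 0.00401 FPKM, and KLRD1, a natural killer cell marker, at most 0.00449 FPKM, so these defining markers were at or near 0.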

How the data were processed

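RNA was isolated with TRIzol, treated with DNase, selected on oligo(dT) beads and sequenced in pairs, per the labels' protocols. The tools named in the submitters' processing notes are HISAT2, HTSeq and fastp, with the build GRCh38. The sources used here give no versions, strand setting or annotation. The authors deposited FPKM values for 26348 genes, with 0 value columns left unused. Whole counts could be recovered from the deposited FPKM for 100% of genes (tolerance 0.01 counts) and were used for depth and for 1 alternative.

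Genes with at least 0.5 FPKM in at least 3 libraries were kept (13811, with 12537 removed). A limma model (version 3.58.1 under R 4.3.3) of their log2(FPKM + 1) values over the 12 libraries had a mean for each group, a variance prior that follows intensity, and 8 residual degrees of freedom. Differences on this scale understate changes of low genes. Tests were two-sided, with Benjamini-Hochberg adjustment over all genes tested and a threshold of 0.05. The fit was also run on simulated counts with the same extra spread for every gene and changes in exposed A549 only. That run does not show how the fit behaves at the spread seen in these libraries. Tables were made in Python 3.11.15 (numpy 2.4.6, pandas 2.3.3). No pair of libraries held identical values.

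The members and the gene lists were chosen with earlier results of these data known, and all values of MICB are given without a test, also those between controls, for which a test had been planned. From each list the text names the 2 tested genes with the smallest adjusted p in either line. The 5 genes with profiles nearest to MICB were also to be named, and 2 genes picked by these rules are not reported here. Fold values are ratios of mean FPKM. Overlapping genes and shared 125-base stretches came from GENCODE v29. The alternatives tried were no filter, a pseudocount of 0.1, a mean FPKM of 1 or more, quantile normalization, rescaling to TPM, median centring, a sum without mitochondrial genes, no trend, each line alone, the replicate number as a block, limma-voom on the recovered counts, and leaving out each of the 12 libraries.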

Additional observations from a re-analysis of the deposited data

Results flagged for a closer look

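ULBP3 was flagged because the field's effect on it differed between the lines by a direct test. The difference was 0.46 on the log2(FPKM + 1) scale (A549 minus 293T, limma adjusted p = 0.0105). It was 1 of 8 members tested, and 12.5% of all genes passed this test, so the call is not read as a property of the ligand genes. All 3 exposed 293T libraries were below all 3 controls, at 4.44 to 5.45 FPKM against 6.92 to 7.96 FPKM, whereas the A549 groups overlapped at 1.44 to 1.56 FPKM in exposed and 1.50 to 1.74 FPKM in control libraries. The difference ranged from 0.41 to 0.54 over 22 other settings, and the adjusted p from 0.00263 to 0.074, with the call lost under limma-voom.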

How the results depend on the processing

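Of the log2 differences of single members, 700 recomputed values with a test stayed on their side of the threshold and in the direction of any call, 11 lost a call, 9 gained one and 0 reversed a call. Of the values of MICB, which had no test, 85 moved by less than a replicate SD and 5 by more, the 5 all between the controls. That SD came from exposed libraries of A549 or 293T, but between the controls from control A549 libraries. In FPKM the SD of MICB was 5.72 in exposed and 0.253 in control A549 libraries. The 5 moves therefore do not show that the control difference was less steady than the A549 difference. All 11 losses were NCR3LG1 in 293T under 10 settings and ULBP3 in the difference between lines under limma-voom. The count of members whose effect differed between the lines, 1, became 0 with limma-voom on the recovered counts. With single libraries left out it was 1 to 2, the 2 coming without exposed 293T replicate 3, when PVR was added. The cause was not tested. Counts of all genes past the threshold stayed within 1.5 times in each comparison. In the difference between lines 761 genes were higher and 971 lower, and 967 and 765 after median centring. Between the controls the median gene was at -0.25, at -0.41 after rescaling to TPM and at -0.15 after quantile normalization, and all member calls kept their direction. Within a line, exposed and control libraries with the same replicate number did not deviate together, at correlations of -0.141 to 0. Exposed replicate 3 of both lines nevertheless lay nearer the controls on the first principal component of its own line (9.91 in A549, 6.51 in 293T). With the replicate number as a block 5435 genes passed in A549 and 5115 in 293T, against 5548 and 5243 without it. There were 1585 in the difference between lines and 12190 between the controls. The member counts of 5, 4, 1 and 8 did not change, where the 8 include ULBP1 and RAET1G. Among the genes named from lists, no called difference changed sign. Counting limits ULBP1, RAET1G and RAET1E most, with as few as 44, 38 and 0 counts in a library.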

Other observations

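Of 21 receptors and adaptors of natural killer cells, 15 were listed and 2 were tested, KLRC2 and KLRC3, which encode NKG2C and NKG2E. KLRC2 averaged 2.57 ± 0.599 FPKM in exposed and 2.64 ± 0.136 FPKM in control A549 cells (SD, n = 3 each), and 0.0285 FPKM in exposed and 0.0351 FPKM in control 293T cells. KLRC3 averaged 0.754 ± 0.159 FPKM in exposed and 0.840 ± 0.169 FPKM in control A549 cells (SD, n = 3 each). Both entered the fit through A549, where neither passed the test, with limma adjusted p of 0.798 for KLRC2 and 0.487 for KLRC3, and in 293T both were too low to show a difference. The genes KLRC2 and KLRC3 are near-identical copies, and reads shared between them were not examined. NAPSA, a marker of alveolar type II cells, averaged 1.10 FPKM in exposed and 0.604 FPKM in control A549 cells, and 0.862 FPKM in exposed and 0.524 FPKM in control 293T cells, while SFTPC had 0 FPKM in both 293T groups and in A549 controls.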
